A study of Mus musculus with 16 samples.

Results

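G3 mutant embryos were compared directly with G17 mutant embryos, 4 against 4, which is 8 of the 16 embryos of the study. Both carry homozygous alleles of Greb1l in the mouse strain C57BL/6J. The G3 mutants have the genotype Greb1lem1Cjean/em1Cjean and the G17 mutants the genotype Greb1lex17/ex17. Wild-type littermates of each line, 4 G3 controls and 4 G17 controls, were used beside them. The cardiac region of each embryo was microdissected at embryonic day 8.5 and its RNA was sequenced. The labels do not describe the lesion of either allele, and they give no litter, sex or batch. Embryos are separate samples, so the tests measure the spread between these embryos, and differences between litters cannot be told apart from differences between lines.

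The members were the 4 mutant columns of each line's table, joined on the gene identifier and put on a common scale by median-of-ratios factors over the 8 mutant embryos. Of 48526 genes, 17936 reached a rescaled value of at least 10 in at least 4 mutant embryos and were tested. The recovered reads of the mutant embryos numbered 32391421 to 48994029. A value is given below in rescaled reads, that is reads per gene after division by the embryo's size factor, and it is not corrected for gene length. A difference is G3 mutant minus G17 mutant on the scale of log2(rescaled reads + 1), with its standard error, and a gene is called where the Benjamini-Hochberg adjusted p of limma is under 0.05. Control values were scaled over all 16 embryos, which moved the scale of a mutant embryo by at most 0.449%.

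Greb1l is a paralog of Greb1, whose product binds steroid hormone receptors in the nucleus and assists them. Loss of Greb1l is known to disturb development of the kidney and of the heart in mice. In a dissected region of many cell types, fewer cells of a type and less RNA per cell cannot be told apart. Markers of the labelled tissue were present in every mutant embryo. The myosin light chain gene Myl7 lay between 17437 and 25521 rescaled reads in G3 mutants and between 15285 and 22905 in G17 mutants. Cardiac troponin T, Tnnt2, lay between 14140 and 21015 in G3 mutants and between 13404 and 19972 in G17 mutants. Neither of these genes was called between the mutants.

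The targeted gene separated the mutants completely. Greb1l, on chromosome 18 of build GRCm38 at 10325177 to 10562940 on the plus strand, had 22118, 19024, 23352 and 15799 rescaled reads in G3 mutants 23, 29, 30 and 31. It had 3225, 5375, 4461 and 3627 in G17 mutants 33, 36, 41 and 42. The groups did not overlap, and every G3 mutant was above every G17 mutant. The mean was 20073 ± 3381 in G3 mutants and 4172 ± 953 in G17 mutants (SD, n = 4 each), a ratio of 4.81. An exact two-sided permutation test of the means over 70 arrangements gave p = 0.0286, the smallest that 4 against 4 embryos allow. In the limma fit the difference was 2.28 ± 0.14 with an adjusted p of 3.48e-06 and a 95% interval of 1.97 to 2.58.

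The wild-type littermates lay between the mutants for Greb1l. G3 controls had 11117, 9295, 12493 and 10911 rescaled reads, and G17 controls had 10048, 10175, 9108 and 9522. All G3 mutants were above all controls and all G17 mutants were below them. Within its own line, Greb1l was higher in G3 mutants at 0.87 (limma adjusted p = 0.000824) and lower in G17 mutants at -1.25 (limma adjusted p = 0.000288), each as a log2 difference from its controls. The paralog Greb1 did not separate the mutants. Greb1 had 5006, 4451, 5119 and 4441 rescaled reads in G3 mutants, against 4700.2, 5067, 5716 and 4509 in G17 mutants, with overlapping groups. Its difference was -0.07 ± 0.08 with a limma adjusted p of 0.886 and a 95% interval of -0.25 to 0.11, and the exact two-sided permutation p was 0.429. Greb1l's 13 tested neighbours within 1 Mb included no called gene. Over all genes tested the shares called were 0.00558% higher and 0.0613% lower, so a count of 0 among 13 says little.

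Besides Greb1l, 11 genes were called, all lower in G3 mutants than in G17 mutants. The share called higher was 0.00558% and the share called lower 0.0613% of the 17936 genes. At an unadjusted p under 0.05 there were 1269 genes, 7.08% of those tested. edgeR's quasi-likelihood test on the recovered reads called 11 genes and DESeq2 called 77. The 11 lower genes were Oxct1, Acadl, Trps1, Dnmt3a, Prmt8, Tnnt1, Igfbp2, Bcl11a, Scube3, Bcl11b and Zfp827.

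**Figure D1:**
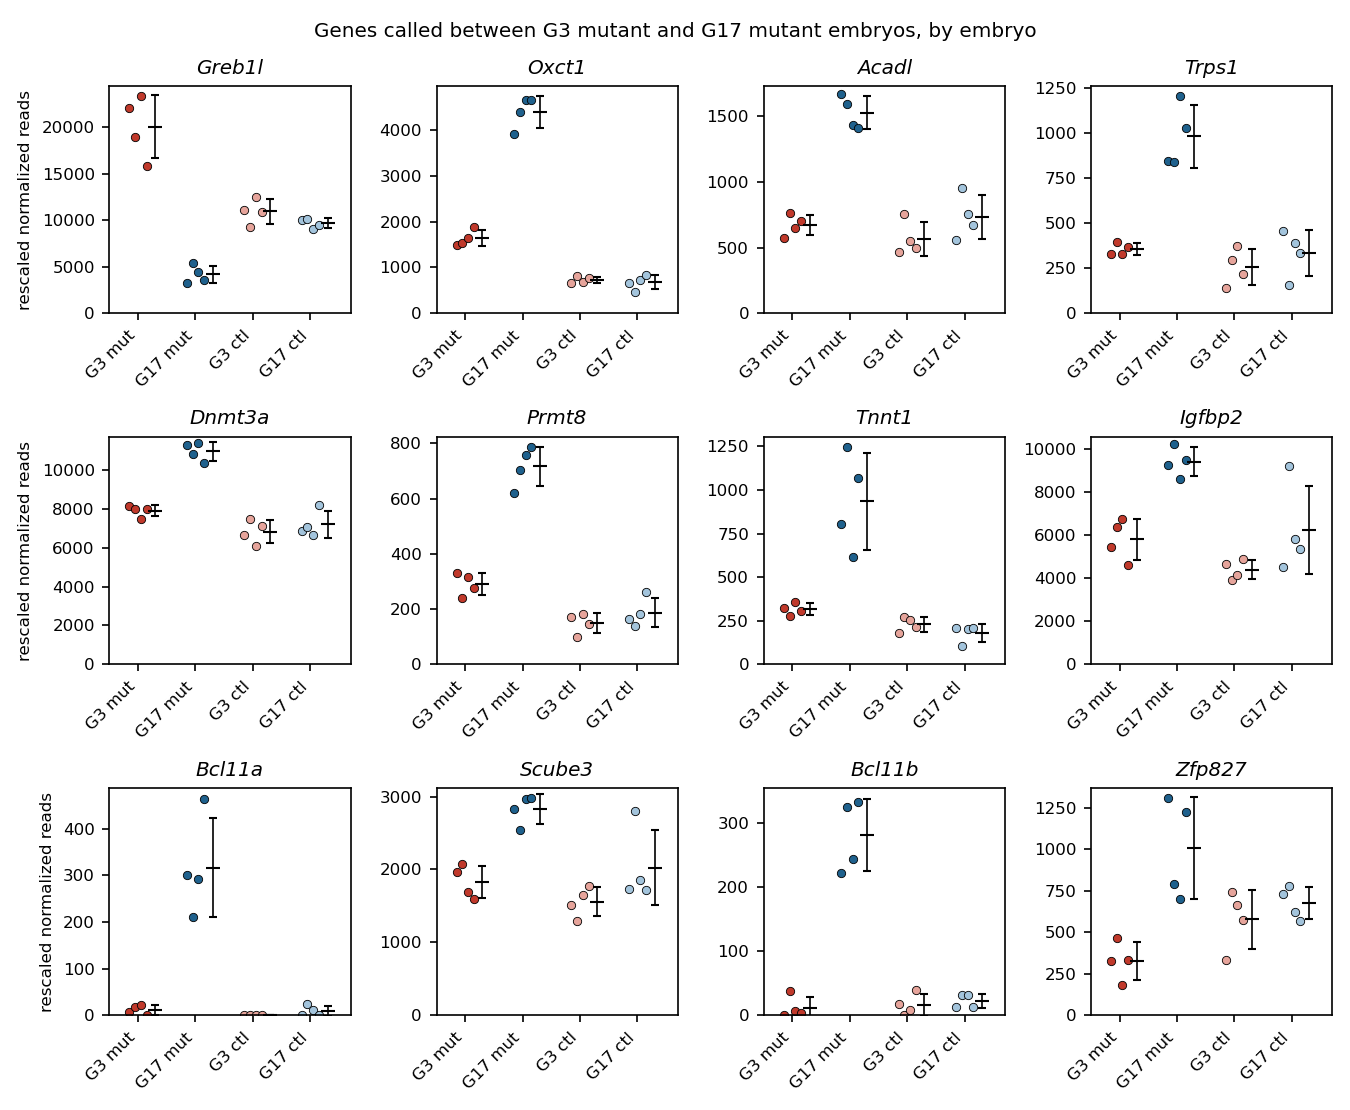
Rescaled reads of the 12 called genes in each of the 16 embryos, with G3 mutants, G17 mutants, G3 controls and G17 controls from left to right in each panel. Points are embryos, and the bar beside them is the mean with 1 SD (n = 4 each). The G17 mutants stand above the G3 mutants in all panels but that of Greb1l, where G3 mutants have 15799 or more rescaled reads and G17 mutants 5375 or fewer.

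Oxct1, with the smallest p after Greb1l, encodes the mitochondrial transferase that starts the use of ketone bodies as fuel. It had 1499, 1532, 1651 and 1890.0 rescaled reads in G3 mutants, against 3915, 4383, 4649 and 4653 in G17 mutants, with no overlap. G3 mutants had 37.3% of the G17 mutant mean, and the difference was -1.42 ± 0.09 (limma adjusted p = 3.48e-06). Littermates had 666, 809, 691 and 772 in G3 controls and 665, 466, 735 and 838 in G17 controls, so the wild types overlapped and both mutants stood above them. Against its own controls Oxct1 was higher by 1.16 in G3 mutants and by 2.73 in G17 mutants, and limma called it in each line.

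Acadl encodes the long-chain acyl-CoA dehydrogenase of mitochondrial fatty acid oxidation. It had 576, 760.3, 648 and 705 rescaled reads in G3 mutants, against 1669, 1592, 1435 and 1411 in G17 mutants. The groups did not overlap and differed by -1.19 ± 0.12 (limma adjusted p = 0.000904). Its controls had 469 to 753 in the G3 line and 554 to 954 in the G17 line, the range in which the G3 mutants also lay. Cpt1a, which carries long-chain fatty acids to the mitochondrial matrix with its partners, had 21.6, 115, 69.0 and 132 rescaled reads in G3 mutants and 322, 244, 467 and 284 in G17 mutants. These groups did not overlap, but its difference of -2.19 ± 0.48 was not called (limma adjusted p = 0.177).

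Dnmt3a, the de novo DNA methyltransferase, had 8147, 8025, 7499.9 and 7994 rescaled reads in G3 mutants, against 11296, 10857, 11391 and 10356 in G17 mutants. Its difference was -0.47 ± 0.06 (limma adjusted p = 0.00263), small in size but with little spread within either group. Trps1, a GATA-type zinc finger repressor, had 327, 396, 328 and 366 in G3 mutants, against 844, 839, 1205 and 1028 in G17 mutants. It differed by -1.45 ± 0.16 (limma adjusted p = 0.0017).

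The zinc finger factors Bcl11a and Bcl11b, known from blood cells and neurons, were near 0 in G3 mutants. Bcl11a had 6.29, 17.5, 21.7 and 0 rescaled reads in G3 mutants, against 300.5, 210.4, 292 and 464 in G17 mutants. Bcl11b had 0, 37.2, 6.39 and 3.36 in G3 mutants, against 223, 325, 244 and 334 in G17 mutants. G3 mutants thus had 3.59% of the G17 mutant mean for Bcl11a and 4.17% for Bcl11b. Controls of both lines lay at G3 mutant levels, at 0 to 23.7 rescaled reads for Bcl11a and 0 to 39.3 for Bcl11b. The limma adjusted p was 0.031 for each, and their log2 differences, -5.36 ± 0.84 and -5.55 ± 0.88, depend on the pseudocount of 1. Neither gene reached 10 rescaled reads in all G3 mutants, so each passed the filter through its G17 mutants.

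Zfp827, another zinc finger gene, had 329.8, 465, 183 and 331 rescaled reads in G3 mutants, against 1309.9, 789, 699 and 1229 in G17 mutants. Its difference was -1.64 ± 0.27 (limma adjusted p = 0.0439), and its controls, at 334 to 745 in the G3 line and 569 to 779.6 in the G17 line, overlapped the range of both mutant groups in the G3 line and that of the G17 mutants in the G17 line. The other 4 genes have different roles. Prmt8, an arginine methyltransferase best known from the brain, had 329, 241, 317 and 276 rescaled reads in G3 mutants, against 621, 703, 756 and 785 in G17 mutants (limma adjusted p = 0.00832). Tnnt1, the slow skeletal troponin T, had 322, 277, 359 and 305 in G3 mutants, against 806, 1247, 615 and 1070.3 in G17 mutants (limma adjusted p = 0.0105).

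Igfbp2, a secreted binding protein of insulin-like growth factors, had 5429.7, 6379, 6729.7 and 4623 rescaled reads in G3 mutants, against 9235, 10227, 8603 and 9487 in G17 mutants (limma adjusted p = 0.0127). Scube3, a secreted and cell surface glycoprotein, had 1962, 2071, 1695 and 1588 in G3 mutants, against 2824, 2545, 2969.5 and 2979 in G17 mutants (limma adjusted p = 0.031). Neither gene's groups overlapped. In both, G17 control 29 stood far above the other G17 controls, with 9179 for Igfbp2 and 2798 for Scube3. The mutants differed by -0.71 for Igfbp2 and -0.63 for Scube3. The controls differed in the same direction, by -0.46 and -0.36, without a call. The interaction was -0.25 ± 0.22 for Igfbp2 and -0.28 ± 0.20 for Scube3, also not called. Neither gene was called against its own controls in either line.

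The weaker calls did not hold in every fit with 1 embryo left out. Over the 8 fits that each left out 1 mutant embryo, limma called Bcl11a in 3, Bcl11b, Scube3 and Zfp827 in 2 each, and Igfbp2 in 5. Tnnt1 was called in 7, and not without G17 mutant 42. Greb1l, Oxct1, Acadl, Trps1, Dnmt3a and Prmt8 were called in all 8. edgeR did not call Bcl11b or Zfp827.

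**Figure D2:**
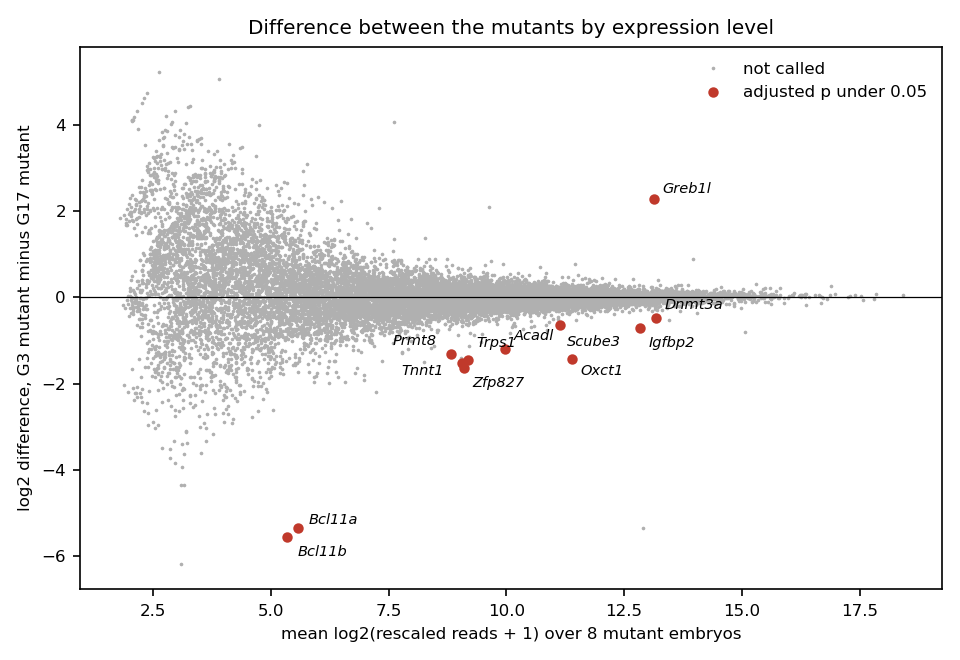
Log2 difference of G3 mutant minus G17 mutant against the mean log2(rescaled reads + 1) over the 8 mutant embryos for the 17936 genes tested. Red points are the 12 called genes. The spread of the differences widens toward low levels, where the median half-width of the 95% interval is 2.37 for genes with a mean below 100 rescaled reads and 0.20 for genes at 1000 or more.

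How small a difference could be seen depended on the level. The whole 95% interval lay within a 2-fold difference either way for 64.1% of genes. It did so for 99.6% of genes with a mean of at least 1000 rescaled reads. These shares depend on the size of the difference as well as on the width of the interval. The mutants were not overlapping for 362 genes higher in G3, which is 2.02% of those tested, and for 391 genes lower in G3, which is 2.18%. Pkhd1l1, chosen after its values were seen, was at 0 in all 4 G3 mutants and at 69.6, 60.7, 62.9 and 102 rescaled reads in G17 mutants. With 0 in every G3 mutant, Pkhd1l1 could pass the filter only through all 4 G17 mutants, so its lack of overlap follows from the filter. limma did not call it (adjusted p = 0.0625).

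The controls of the lines were compared in the same way to see which differences lie between the lines themselves. Of 17824 genes, limma called 0 (0%) between G3 controls and G17 controls, with 1259 genes at an unadjusted p under 0.05. edgeR called 0 and DESeq2 33. The controls did not overlap for 402 genes higher in the G3 line (2.26%) and 319 lower (1.79%). Since limma called no gene between the controls, it called none of the 12 genes called between the mutants there. That would hold for any 12 genes and does not set these 12 apart. For 11 of them the controls' difference lay between -1.28 and 0.38, and Bcl11a did not pass the filter there.

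The interaction, the change from control in G3 minus the change from control in G17, was called by limma for 2 of 20010 genes (0.01%), with 1288 at an unadjusted p under 0.05. These were Greb1l at 2.11 ± 0.19 (adjusted p = 9.79e-06) and Oxct1 at -1.57 ± 0.20 (adjusted p = 0.0019). edgeR called 2 genes and DESeq2 14. For the other 10 genes called between the mutants the interaction was not called, which does not show that they changed equally in the lines. It was -1.90 ± 0.37 for Tnnt1, -0.82 ± 0.24 for Acadl and -0.40 ± 0.10 for Dnmt3a, all with limma adjusted p above 0.05.

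Each line's own change from its controls shows where the mutants part. Against controls, limma called 717 of 18025 genes in G3 (3.98%) and 537 of 17706 in G17 (3.03%). Among the 17108 genes tested in both, 239 were called in both lines, which is 33.5% of the genes called in G3 and 44.9% of those called in G17. Of these, 238 moved the same way, 191 higher and 47 lower than controls, and Greb1l moved oppositely. The change was larger in G17 for 161 of the 238 and larger in G3 for 77, with a median ratio of G3 to G17 change of 0.87. These ratios depend on which genes are chosen. Among genes called in G17 the median ratio of G3 to G17 change was 0.617, and among genes called in G3 the median ratio of G17 to G3 change was 0.756, so in each set the line that chose the genes had the larger change. Over the genes called in both lines, with 1 of the 16 embryos left out the ratio was 0.82 to 0.98 and the share larger in G17 54.5% to 78.4%, and whether the sizes differ between the lines as a whole was not tested.

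**Figure D3:**
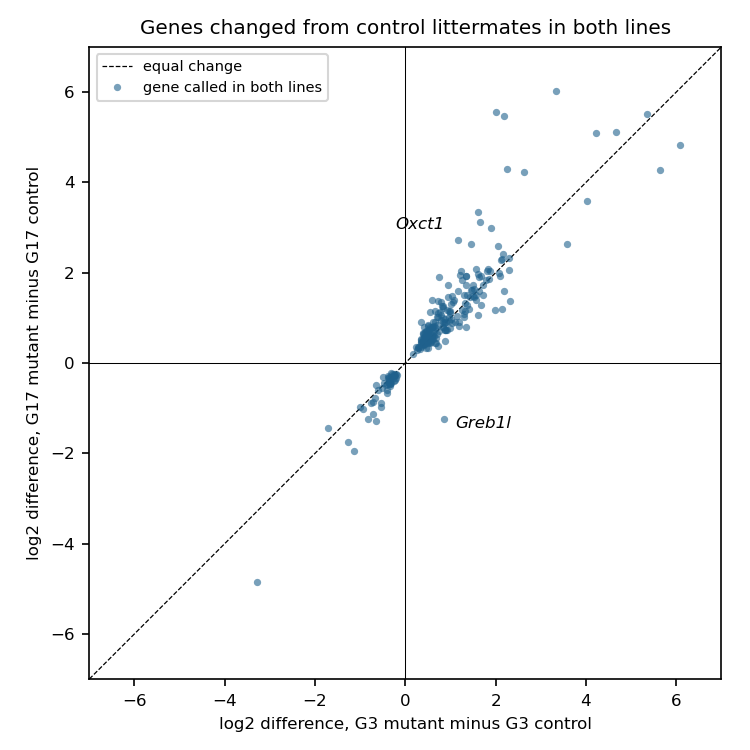
Change from control littermates in G3 (x axis, log2 difference) against that in G17 (y axis) for the 239 genes called in both lines. The dashed line marks equal change. The points lie along the line in the upper right and lower left, and Greb1l, at 0.87 in G3 and -1.25 in G17, is the exception.

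The primitive streak and pluripotency factor Pou5f1 was among the genes called in both lines. It was higher than in controls by 1.61 in G3 mutants and by 3.34 in G17 mutants, with limma adjusted p of 0.00765 and 0.000332. The mutants themselves overlapped, with 1813, 1664, 2068 and 678 rescaled reads in G3 and 1121, 3369.8, 3654 and 2569.9 in G17. The direct difference of -0.77 was not called (limma adjusted p = 0.695). The controls did not overlap, at 347 to 549 in G3 controls and 136 to 319 in G17 controls, and their difference of 0.96 was not called (limma adjusted p = 0.702).

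The gene lists describe which kinds of genes leaned one way. Members of a list were measured in the same 8 embryos and are not independent. The SD between mutants of a line was taken on each list's mean log2(rescaled reads + 1). It was 0.16 for fatty acid oxidation and ketone use, 0.25 for sarcomere and 0.09 for heat shock genes. It was 0.67 for Hox, 0.10 for foregut endoderm and 1.14 for primitive erythrocyte genes. Over all 17936 genes the median difference was 0.02, with 9576 genes positive and 8360 negative. In the list of fatty acid oxidation and ketone use, 16 of 18 members had a negative difference, with a median of -0.18. In this list Oxct1 and Acadl were the only members called. The mutants did not overlap for 4 members, all lower in G3 mutants, beside 2.18% of all genes tested. The same list had a median of -0.01 between controls. With sex in the fit its median between mutants was -0.04. That fit compares only the female G3 mutants 29 and 31 with the G17 mutants, as every male mutant was G3.

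Most genes of the contractile apparatus also had a negative difference, with a median smaller than the spread between embryos. Of 29 sarcomere genes, 25 had a negative difference, with a median of -0.10, and Tnnt1 was the only member called. Summed sarcomere reads overlapped, at 284861 to 357740 in G3 mutants and 276042 to 389286 in G17 mutants. Between controls the sarcomere median was 0.10. The cardiac troponin I gene Tnni3 had 356, 535, 456 and 662 rescaled reads in G3 mutants, against 1179, 889.6, 794 and 1221 in G17 mutants, without overlap. Its difference of -1.03 ± 0.20 was not called (limma adjusted p = 0.1), and DESeq2 called it. The sarcomere genes Tnnt2, Myl7, Actn2, Myh6 and Myh7 overlapped between the mutants.

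Among 20 genes of calcium handling and excitation none was called, and 4 did not overlap, all lower in G3 mutants. Over all genes tested, 2.18% did not overlap and were lower in G3 mutants. The connexin gene Gja5 had 476, 637, 650.1 and 412 rescaled reads in G3 mutants, against 1131, 831, 959.5 and 963 in G17 mutants. The calcium channel gene Cacna1h had 1112, 1249, 1364 and 1121 in G3 mutants, against 1863, 1983, 1516 and 1776 in G17 mutants. Both were far lower in controls, at 66.3 to 251 for Gja5 and 195 to 522 for Cacna1h. The differences were -0.85 ± 0.17 for Gja5 and -0.56 ± 0.11 for Cacna1h, with limma adjusted p of 0.114 and 0.115, so neither was called. Cacna1h was also free of overlap between the controls, at 195 to 342 in G3 controls and 406 to 522 in G17 controls, with a difference of -0.65 between controls and an interaction of 0.10.

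Heat shock genes leaned upward in G3 mutants. Of 12 members, 11 had a positive difference and none was called, with a median of 0.20 against -0.02 between controls. The mutants did not overlap for 6 members, all higher in G3 mutants, beside 2.02% of all genes tested. Hspa8, a constitutive chaperone, had 142017, 132410.0, 127026 and 130708 rescaled reads in G3 mutants, against 116058, 101243, 114844 and 113805 in G17 mutants. Dnajb1, a co-chaperone, had 3889, 4063, 3704 and 3657 in G3 mutants, against 2854, 2379, 3087 and 2859 in G17 mutants. Their differences of 0.26 ± 0.05 and 0.46 ± 0.09 missed the threshold, with limma adjusted p of 0.103 and 0.0966.

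The Hox genes, which pattern the body axis, had a positive difference in 17 of 19 members with a median of 0.40, and none was called. That median is smaller than the spread between embryos for this list. Between controls 7 of 19 Hox genes were positive, with a median of -0.11. Foregut endoderm markers had a positive difference in 18 of 19 with a median of 0.26, and in 7 of 20 between controls with a median of -0.20. Among them Krt18, a keratin of simple epithelia, overlapped at 9977 to 12442 in G3 mutants and 6739 to 11466 in G17 mutants. Whether dissected tissue other than heart contributes to any called gene was not tested.

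Genes that pattern the heart field overlapped between the mutants. None of 19 cardiac progenitor and second heart field genes was called or free of overlap, with a median of 0.06. Few would be at the shares over all genes tested, 2.02% higher and 2.18% lower in G3 mutants. Isl1, which marks the second heart field, had 1288, 1400.3, 2013 and 1260.0 rescaled reads in G3 mutants, against 873, 1263, 1293 and 1217 in G17 mutants. Nkx2-5, an early cardiac transcription factor, lay at 2764 to 3327 in G3 mutants and 2443 to 2976 in G17 mutants. Tbx5, a factor of the posterior heart field, lay at 2087 to 2720.0 in G3 mutants and 2581 to 3341 in G17 mutants. Their limma adjusted p were 0.695 for Isl1, 0.726 for Nkx2-5 and 0.695 for Tbx5.

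No member of the retinoic acid, BMP response or WNT target lists was called. Over all genes tested, the mutants did not overlap for 2.02% higher and 2.18% lower in G3. Of 17 retinoic acid genes, 12 had a positive difference, with a median of 0.18, and none was called. The one without overlap was Cyp26a1, the retinoic acid degrading enzyme, with 966, 874, 774 and 717 rescaled reads in G3 mutants, against 1103, 1401, 988 and 1045 in G17 mutants (limma adjusted p = 0.569). Dhrs3, which reduces retinal, overlapped through G17 mutant 33, with 523, 524, 359 and 564 in G3 mutants, against 480.0, 188, 223 and 236 in G17 mutants. In the BMP response list 2 of 10 genes did not overlap, each higher in G3 mutants. The homeobox gene Msx1 was one, at 1252 to 1668 in G3 mutants and 835 to 1230.2 in G17 mutants.

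Among WNT targets the transcription factor gene Sp5 was free of overlap, with 605, 836, 573 and 555 rescaled reads in G3 mutants, against 412, 475, 419 and 299 in G17 mutants. It was not called (limma adjusted p = 0.454). The nuclear receptor gene Esrrb had 120.4, 107, 84.3 and 119 in G3 mutants, against 32.98, 0, 59.5 and 0 in G17 mutants, and likewise was not called (limma adjusted p = 0.542). The zinc finger gene Gata3, in the lists of otic and surface ectoderm genes, lay at 846 to 919.6 in G3 mutants and 478 to 759 in G17 mutants.

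Stress and metabolic genes outside the lists above also did not pass the threshold. Of 19 genes of the integrated stress response and amino acid supply, 16 had a positive difference, with a median of 0.19. The mutants did not overlap for 3 of them, all higher in G3 mutants, beside 2.02% of all genes tested. Asparagine synthetase, Asns, had 2281, 1851, 2234 and 2071 rescaled reads in G3 mutants, against 1735, 1489, 1702 and 1549 in G17 mutants (limma adjusted p = 0.356). The stress-induced pseudokinase gene Trib3 had 109, 79.9, 211 and 86.5 in G3 mutants, against 76.9, 22.97, 21.2 and 32.2 in G17 mutants. The glucose transporter gene Slc2a1 overlapped, at 38165 to 48498 in G3 mutants and 33600.0 to 40939 in G17 mutants.

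Imprinted genes were even in direction, with 12 of 24 positive. Phlda2, an imprinted growth regulator, had 1189, 1361, 1332 and 1219.7 rescaled reads in G3 mutants, against 1189.9, 593, 650.2 and 657 in G17 mutants. Its difference of 0.78 ± 0.19 was not called (limma adjusted p = 0.259). G17 mutant 33 was the embryo farthest from its group for this gene. Without G17 mutant 33 the difference was 1.01 and was called (limma adjusted p = 0.0065). This fit is given because that embryo stood apart for this gene, so its call is no support for a difference. The zinc finger gene Plagl1, also imprinted, lay at 7606 to 11641 in G3 mutants and 10903 to 15644 in G17 mutants. Plagl1 was higher than in controls by 0.96 in G3 mutants and 0.93 in G17 mutants, with limma adjusted p of 0.000578 and 0.00144. Its controls did not overlap, at 4056 to 5388 in G3 controls and 6320.2 to 8763 in G17 controls, a difference of -0.56 that was not called.

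Cytosolic ribosomal protein genes had a small positive difference in 50 of 55 members, with a median of 0.10. The mutants did not overlap for 10 members, all higher in G3 mutants, beside 2.02% of all genes tested. Between controls the median was also 0.10, and the median interaction was -0.01. The controls did not overlap for 12 members, all higher in the G3 line, beside 2.26% of all genes tested there. Rplp1, a ribosomal stalk protein, had 53575, 53492, 54076 and 52662 rescaled reads in G3 mutants, against 46919, 42206, 47916 and 46196 in G17 mutants. Its difference of 0.22 ± 0.05 was not called between the mutants (limma adjusted p = 0.114), and that between controls was 0.28.

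**Figure D4:**
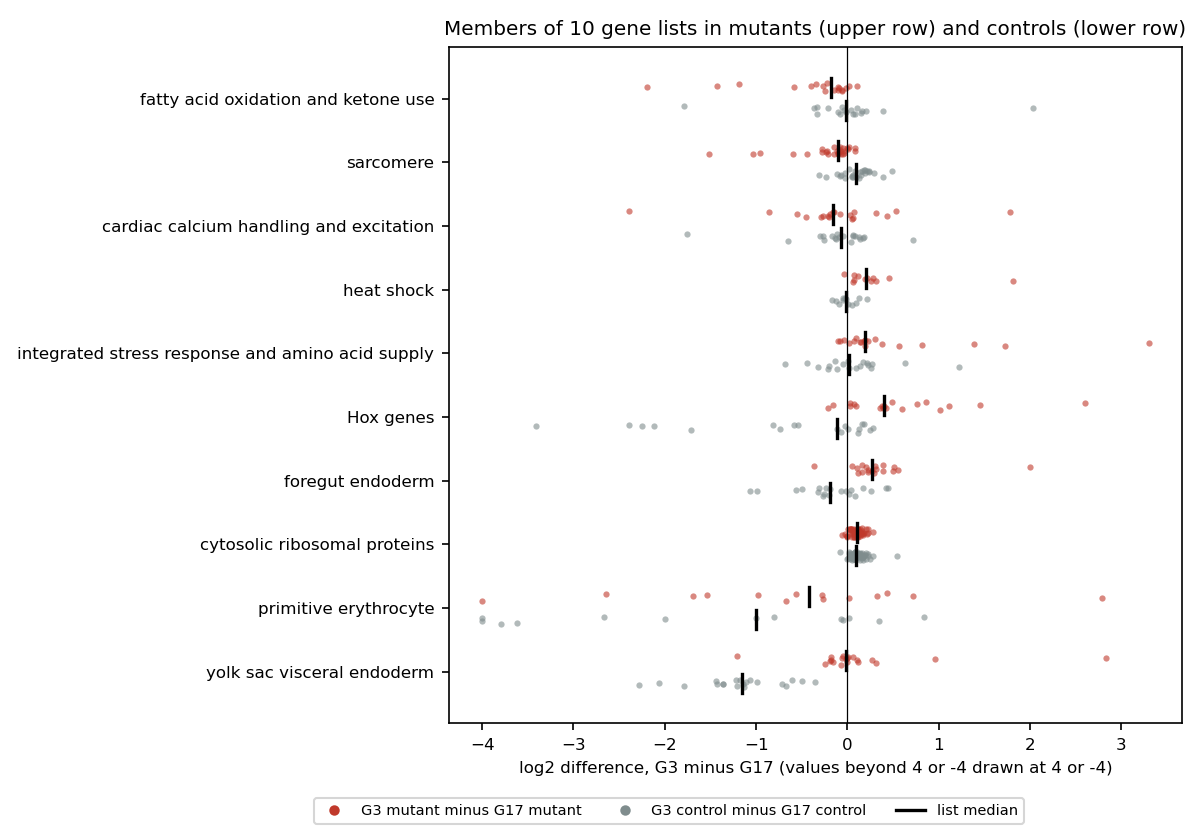
Log2 difference (x axis) of the members of 10 gene lists, with G3 mutant minus G17 mutant in the upper red row and G3 control minus G17 control in the lower grey row. Each point is a gene and the black bar is the list median. The ribosomal protein medians are alike at 0.10 in both rows, while the yolk sac median is -0.01 in mutants and -1.16 in controls. With sex as a term, which compares only the female G3 mutants with the G17 mutants, the yolk sac median in mutants is 0.41.

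Markers of other tissues were described in the same way. Of 20 yolk sac visceral endoderm genes none was called, with a median of -0.01 between mutants and -1.16 between controls. The yolk sac median between mutants was not stable. It was 0.41 with sex as a term and in female embryos only. These are not separate checks, because both fits compare only the female G3 mutants 29 and 31 with the G17 mutants. Without G3 mutant 23 it was 0.40, and without G17 mutant 33 it was 0.42. With TMM factors it stayed near 0, at 0.001. Primitive erythrocyte genes had a median of -0.42 between mutants, with 14 members tested, and -0.998 between controls, with 13. The median between mutants is smaller than the spread between embryos for this list. The transferrin receptor gene Tfrc did not overlap between the mutants, at 7062 to 8286 rescaled reads in G3 mutants and 8668 to 9446 in G17 mutants, and was not called. The part of these tissues in the called genes was not tested.

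The mutants could also be read for sex, which the labels do not give. G3 mutants 23 and 30 carried reads of the Y-linked genes Ddx3y, Eif2s3y, Kdm5d and Uty, summing to 6279.99 and 6704.06 rescaled reads. Their Xist values were 108 and 8.94. G3 mutants 29 and 31 and all 4 G17 mutants had Xist at 38516 or more. Sex is thus unevenly spread, with males among the mutants in G3 only, and among the controls G3 controls 18 and 21 also read as male. Because every male mutant was G3, a sex term leaves G3 mutants 29 and 31 against the G17 mutants. It thus gives the same differences as female embryos alone and is not a separate check. With sex as a term, limma called Greb1l higher and 3 genes lower, namely Oxct1, Acadl and Prmt8. In female embryos alone it called Greb1l and Oxct1, at 2.08 and -1.37. The other called genes kept their direction there.

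The embryos' own spread sets the frame for these counts. The median root mean square log2 distance over genes with a mean of at least 1000 rescaled reads was 0.264 between G3 and G17 mutants, 0.225 within G3 mutants and 0.248 within G17 mutants. Distances between lines, at 0.206 to 0.293, overlapped those within lines. The first principal component, with 25.4% of the variance of 7293 genes, placed G3 mutants at 1.78 to 11.6 and G17 mutants at -2.11 to -9.75. The male G3 mutants 23 and 30 were the farthest from the G17 mutants on it, at 8.71 and 11.6.

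**Figure D5:**
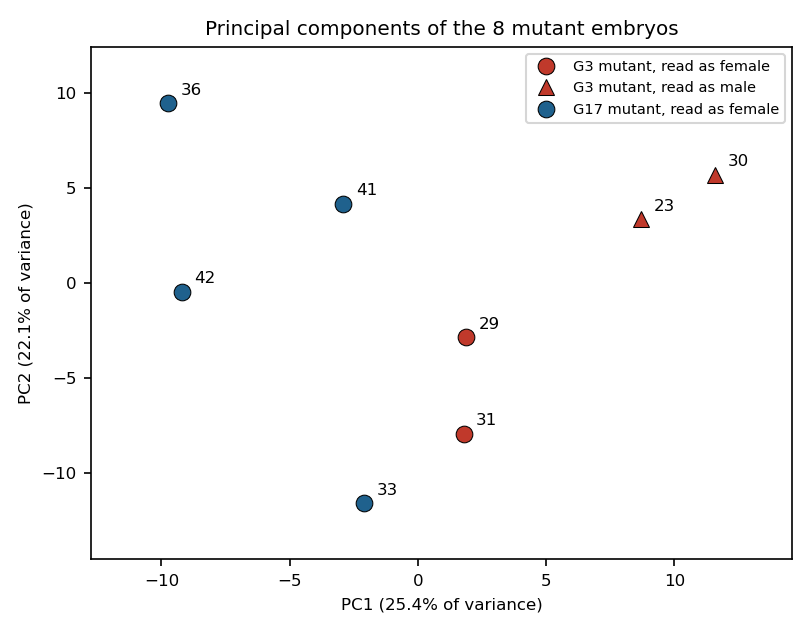
First (x axis) and second (y axis) principal components of the 8 mutant embryos over 7293 genes, in units of the component score. Colour gives the line and shape the sex read from Xist and Y-linked genes. The first component separates the lines, with G3 mutants at 1.78 or more and G17 mutants at -2.11 or less.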

How the data were processed

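RNA of single microdissected embryonic cardiac regions was sequenced as paired-end reads. HISAT2, featureCounts of Subread, DESeq2 and build GRCm38 are named in the submitters' processing notes, and their versions are not stated there. The deposited values are a normalized signal, reads divided by a DESeq2 size factor within each line's table, per the file headers and the values. Whole reads were recovered for 100% of values, within a tolerance of 0.01 or the printed digits. Strand use in counting is not given in the sources used here.

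Both tables were joined and rescaled by median-of-ratios factors over the 8 mutant columns. In R 4.3.3, limma 3.58.1 with a mean-variance trend was fitted to log2(value + 1) with Benjamini-Hochberg adjustment, threshold 0.05. The same fit compared the controls, and a fit over 16 embryos gave the interaction. edgeR 4.0.16 and DESeq2 1.42.0 on recovered reads, other pseudocounts, filters, scalings, sex and embryos left out were alternatives. The fits were tested on simulated data. The 49 gene lists (892 genes), the members and the rule for named genes (smallest p among called genes and list members) were chosen with earlier results of these data known. A count of 0 allows up to 3 reads per embryo, which covers counting error only. Some genes are not reported here.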

Additional observations from a re-analysis of the deposited data

Results flagged for a closer look

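The change from control differed between the lines for Greb1l and Oxct1 in a test of the interaction. It was 2.11 for Greb1l (limma adjusted p = 9.79e-06) and -1.57 for Oxct1 (limma adjusted p = 0.0019), given as the change in G3 minus the change in G17. Leaving out any 1 of the 16 embryos left both called.

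G17 mutant 36, with Xist at the female level, held 67 reads of Y-linked genes, 35 of Ddx3y, 18 of Eif2s3y and 14 of Uty, and 0 of Kdm5d. The other 3 G17 mutants had 0 reads of all 4 genes. Their source was not tested.

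Single embryos stood far from the other 3 of their group in 14 of 173 groups of 4 examined over the reported genes. The cut-off is set to flag about 1 in 20 independent groups of normally distributed values. Genes measured in the same embryos are not independent, so whether 14 exceeds that rate was not tested. In G17 mutant 41, Myl7 was 15285, Actn2 2811 and Myh7 18932, all below the other G17 mutants, and none of these genes was called. In G17 mutant 33, Dhrs3 was 480.003 and Phlda2 1190, above the other G17 mutants. In G17 mutant 36, Hspa8 was 101243. Among controls, G3 control 18 was high for Tnnt2 (23526), Myh6 (60181) and Myh7 (25640.2). G3 control 21 was high for Slc2a1 (54617) and Pkhd1l1 (10.3). G17 control 29 was high for Scube3 (2798) and Slc2a1 (82889) and low for Tnnt1 (104).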

How the results depend on the processing

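The call of Greb1l, at 2.08 to 2.41 over the alternatives run, and that of Oxct1 held in all 20. The other 10 calls were lost in some settings, and none reversed. Genes called higher numbered 27 with DESeq2 and 4 at an adjusted p under 0.1. Genes called lower numbered 50 with DESeq2, 7 with a pseudocount of 0.1, 3 with sex as a term, 1 in female embryos, 6 in a fit over 16 embryos, 5 at an adjusted p under 0.01 and 19 at 0.1. Leaving out 1 mutant embryo gave 1 to 8 genes higher, 8 of them without G17 mutant 33, and 5 to 12 lower, 5 without G17 mutant 42. Between controls, genes higher numbered 21 and lower 12 with DESeq2, and 1 was lower with sex as a term. The interaction had 8 genes higher and 6 lower with DESeq2, and 1 and 1 in every fit without 1 embryo. Genes called in both lines numbered 137 to 276 with 1 embryo left out, and 85 to 173 were larger in G17. Of genes not called, Tnnt2 ranged from -0.0255 without G17 mutant 41 to 0.193 without G3 mutant 23, and Myl7 from -0.0588 to 0.181 without the same embryos. List medians changed sign in 68 of 960 refits. Of the lists with values in the report, those of yolk sac, imprinted genes and WNT targets changed sign in at least 1 refit. The cause was not tested. No paired analysis was possible because the G3 and G17 mutants are separate embryos and the labels give no litter. Intervals were widest for low-count genes.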
